A study of Mus musculus with 6 samples.

Results

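The genes described here take up, carry, store, burn, build or export lipid. They are 40 genes chosen by symbol, from the nuclear receptors that control lipid handling to the enzymes of fatty acid synthesis, and all 40 were found among the 40564 genes of the deposited count tables. Of these 40, 39 passed the filter on low counts and were tested among 16765 genes. The remaining gene, Apoc2, had 8 counts in 1 Cis_KO library and 0 in the other libraries. Macrophages of the airspaces clear spent surfactant, a lipid-rich film, and so take in more lipid than most macrophages. They bind lipid particles with scavenger receptors, move fatty acids on carrier proteins, keep them as droplets of triglyceride and cholesteryl ester, release them by lipolysis for oxidation in mitochondria, and export sterol through ABC transporters. GM-CSF, which signals through STAT5, induces PPARG in these cells, and interleukin 4 acting through STAT6 is known to raise PPARG-dependent lipid genes in macrophages.

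The RNA came from mouse bronchoalveolar lavage cells, immune cells rinsed from the lung, in 3 genotypes of 2 libraries each. Cis_Stat6_DKO cells lack CIS and STAT6, Cis_KO cells lack CIS, the SH2-domain protein of the gene Cish that restrains STAT5 signalling, and WT cells carry neither deletion. No treatment was given and all samples carry the same date; age, sex, strain and the way each gene was deleted were not stated in the sources used here. The labels do not say that the 2 libraries of a genotype came from separate animals, so every p-value measures the spread between these libraries, which may be technical.

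The libraries held 50762354 to 65937118 counts, and the lipid genes took 0.789% to 1.03% of them. Values below are CPM, the count of a gene scaled to a common library size, with TMM factors that adjust for differences in RNA composition. Cish stood at 1.72 and 5.04 CPM in Cis_Stat6_DKO and 4.34 and 3.52 CPM in Cis_KO, against 46.2 and 56.2 CPM in WT. Stat6 stood at 31.6 and 25.5 CPM in Cis_Stat6_DKO, against 264 and 221 CPM in Cis_KO and 233 and 227 CPM in WT. Cis_KO replicate 2 stood apart from the other libraries. It had counts for 15855 genes, against 19641 to 20431 elsewhere, gave 3.29% of its counts to haemoglobin genes, against at most 0.0366%, and its Spearman correlation with the other libraries was 0.914 to 0.938, against 0.957 or more among the rest. For most genes the differences that involve Cis_KO are therefore also given without it, although Cis_KO then has 1 library, which is assumed to vary like the others. The 12 alveolar macrophage markers summed to 32100 and 41100 CPM in Cis_Stat6_DKO, 20600 and 16100 in Cis_KO and 16100 and 23700 in WT, and Chil3 alone had 22280 and 31130 CPM in Cis_Stat6_DKO, 11570 and 6881 in Cis_KO and 8777 and 15010 in WT. The other markers did not share 1 order. Marco, Itgax and Atp6v0d2 were highest in Cis_Stat6_DKO. Ear2 was highest in Cis_KO, with 1895 and 2168 CPM, against 1254 and 1103 in Cis_Stat6_DKO and 1204 and 1521 in WT. Krt19 and Cidec were also highest in Cis_KO. The markers Cidec and Pparg are themselves lipid genes described here, and Marco is in the wider list. Of 6 adipocyte markers, Adipoq, Cfd, Lep and Pck1 had no counts in any library. Plin1 had 0.838 and 1.15 CPM in Cis_Stat6_DKO, 2.19 and 3.97 in Cis_KO and 4.85 and 6.28 in WT, and the last, Fabp4, is itself among the carriers described here. Epithelial markers summed to 131 and 73.8 CPM in Cis_Stat6_DKO, 121 and 291 in Cis_KO and 217 and 227 in WT. Abca3, in the wider list, gave 97.7 and 58.7 of these in Cis_Stat6_DKO, 86.2 and 89.55 in Cis_KO and 135 and 135 in WT. Neutrophil markers summed to 280 and 302 CPM in Cis_Stat6_DKO, 175 and 822 in Cis_KO and 244 and 236 in WT. They did not share 1 order either. S100a9 had 27.7 and 72.3 CPM in Cis_Stat6_DKO, 0.438 and 133 in Cis_KO and 1.35 and 1.24 in WT. Csf3r had 64.2 and 53.9 CPM in Cis_Stat6_DKO, 61.8 and 61.1 in Cis_KO and 116 and 113 in WT. The part of these cells in the values below was not tested. In bulk RNA, fewer cells of a type and less RNA per cell cannot be told apart.

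None of the 39 lipid genes passed the adjusted threshold in edgeR in any of the 3 comparisons, while single genes stood well apart between genotypes. Loss of STAT6 on top of CIS went with higher values of most uptake genes and carriers and lower values of sterol efflux genes and of several droplet genes. In Cis_Stat6_DKO against Cis_KO, 0 of 39 passed a Benjamini-Hochberg adjusted p under 0.05 in edgeR's quasi-likelihood test, where 0.358% of all genes did. At an unadjusted p under 0.05, 11 lipid genes (28.2%) were higher and 10 (25.6%) lower in Cis_Stat6_DKO, against 9.29% and 8.99% of all genes tested. The lipid genes were chosen with results known, and their median SE was 0.223, against 0.392 for all genes. Their median absolute log2 fold change was no larger, 0.537 against 0.556. DESeq2 called 12 of the 39 in this comparison, against 9.68% of the genes it tested. Without Cis_KO replicate 2, edgeR called 5, namely Msr1, Fabp4, Fabp5, Nr1h3 and Dgat2, against 2.68% of all genes. Without Cis_KO replicate 1 it called 18, against 32.2% of all genes. Of Cis_KO, that fit keeps only the library that stood apart, so its calls of Msr1, Fabp4 and Fabp5 are not taken as separate support. Among the edgeR fits with 1 library left out, only those without a Cis_KO library called lipid genes in this comparison.

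The other comparisons gave fewer differences. In Cis_Stat6_DKO against WT, edgeR called 0 of 39, against 0.131% of all genes. At an unadjusted p under 0.05, 3 lipid genes were higher and 4 lower in Cis_Stat6_DKO, against 3.06% and 2.3% of all genes. DESeq2 called Msr1 and Abca1, 2 of 39 against 2.01% of its genes. The edgeR fit without Cis_KO replicate 2 called Msr1 and Fabp5, 2 of 39 against 1.9%, and the fit without Cis_KO replicate 1 called Fabp5, 1 of 39 against 1.65%. In Cis_KO against WT, edgeR called 0 of 39, against 0.274% of all genes. At an unadjusted p under 0.05, 3 lipid genes were higher and 6 lower in Cis_KO, against 5.51% and 5.59% of all genes. DESeq2 called Scd2, 1 of 39 against 3.37%. Without Cis_KO replicate 2, edgeR called Scd2 and Dgat2, 2 of 39 against 1.02%, and without Cis_KO replicate 1 it called 10, against 28.8% of all genes. The 3 comparisons share libraries in pairs, so their values are set side by side and are not independent of each other.

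As a whole the lipid genes did not lean one way. Their median log2 fold change was 0.011 in Cis_Stat6_DKO against Cis_KO, beside 0.054 for all genes tested. It was -0.066 in Cis_Stat6_DKO against WT, beside -0.003, and -0.008 in Cis_KO against WT, beside -0.054. A share of 15.4% of them differed by a log2 fold of at least 1 in Cis_Stat6_DKO against Cis_KO, beside 27.3% of all genes, many of which are expressed at lower levels. Both Cis_Stat6_DKO libraries lay above all 4 others in 10 lipid genes, against 13.9% of all genes, and below all 4 others in 10, against 11.6%. The 10 on the high side held Cd36, Msr1, Olr1, Fabp4, Fabp5, Soat1, Plin3, Nr1h3, Pparg and Fasn. The 10 on the low side held Apoe, Abcg1, Plin2, Cidec, Dgat1, Pnpla2, Hadha, Hadhb, Acadm and Acadvl. The storage genes stood on both sides, the uptake genes and carriers of these lists on the high side and the efflux and oxidation genes on the low side.

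**Figure D1:**
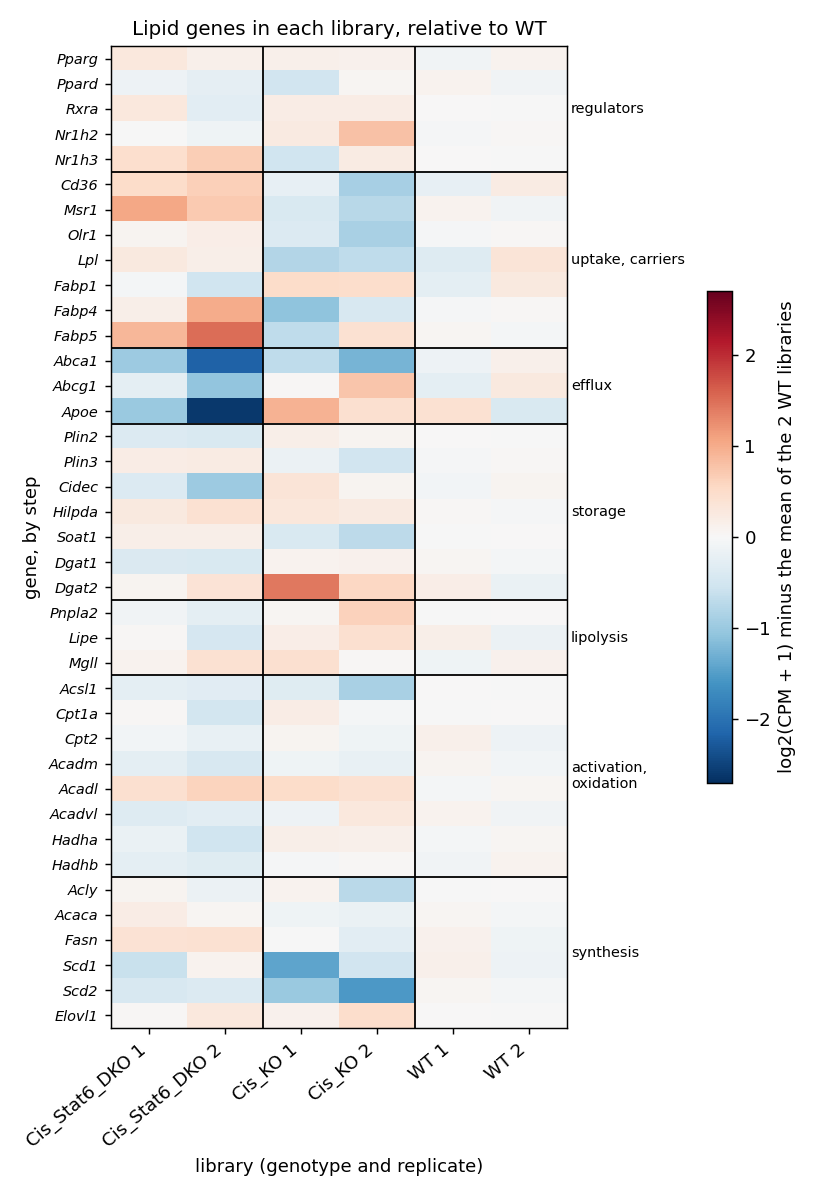
Each row is a lipid gene, grouped by step, and each column a library, with the Cis_Stat6_DKO libraries at the left, then Cis_KO, then WT. Colour is log2(CPM + 1) minus the mean of the WT libraries, red above and blue below. Cd36, Msr1 and Fabp4 are red in both Cis_Stat6_DKO libraries and blue in both Cis_KO libraries, and Apoe is blue in both Cis_Stat6_DKO libraries and red in both Cis_KO libraries.

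The nuclear receptors that regulate lipid genes had small differences between genotypes. Pparg, the receptor on which alveolar macrophage identity depends and the member of this step with the highest FPKM (reads per kilobase of gene, scaled to library size), had 205 and 185 CPM in Cis_Stat6_DKO, 184 and 183 in Cis_KO and 158 and 179 in WT. For this gene the log2 fold changes were 0.08 ± 0.17, 0.21 ± 0.17 and 0.12 ± 0.17 (SE) in Cis_Stat6_DKO against Cis_KO, Cis_Stat6_DKO against WT and Cis_KO against WT, and its smallest unadjusted p was 0.252. The 6 libraries thus held Pparg within a narrow band, with both Cis_Stat6_DKO libraries at its top. The oxysterol receptors LXR alpha and LXR beta had opposite orders in the CIS-deficient genotypes. Nr1h3, which encodes LXR alpha, had 59.99 and 70.1 CPM in Cis_Stat6_DKO, 29.8 and 51.1 in Cis_KO and 44.1 and 43.1 in WT. This gene's log2 fold change in Cis_Stat6_DKO against Cis_KO was 0.68 ± 0.28 (SE, edgeR adjusted p = 0.268), 1.11 without Cis_KO replicate 2 and 0.36 without Cis_KO replicate 1. Nr1h2, which encodes LXR beta, had 75.0 and 70.4 CPM in Cis_Stat6_DKO, 89.9 and 132 in Cis_KO and 74.4 and 77.7 in WT. Its difference of -0.61 ± 0.22 in Cis_Stat6_DKO against Cis_KO (edgeR adjusted p = 0.24) was -0.32 without Cis_KO replicate 2, the library with the highest value, and -0.85 without Cis_KO replicate 1. Rxra, the partner of the PPAR and LXR receptors, and Ppard each had an unadjusted p above 0.05 in all 3 comparisons.

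Most uptake genes and carriers had higher values in Cis_Stat6_DKO than in Cis_KO. All 7 had an unadjusted p under 0.05 in Cis_Stat6_DKO against Cis_KO, 6 of them higher and Fabp1 lower in Cis_Stat6_DKO. Of all genes tested, 9.29% were higher and 8.99% lower at that threshold. None of the 7 had an adjusted p under 0.05 in edgeR, and the step was chosen with results known. The median log2 fold change of the step was 1.09 in Cis_Stat6_DKO against Cis_KO, 0.55 in Cis_Stat6_DKO against WT and -0.59 in Cis_KO against WT. Under the alternatives the median stayed between 0.94 and 1.15 in the first of these and between -0.75 and -0.39 in the last. In Cis_Stat6_DKO against WT it ran from 0.23, without Cis_Stat6_DKO replicate 2, to 0.67. Msr1, the class A scavenger receptor that binds modified lipoproteins, had 135 and 107 CPM in Cis_Stat6_DKO, 48.8 and 38.3 in Cis_KO and 70.3 and 60.8 in WT. No library of one genotype overlapped another, with Cis_Stat6_DKO highest and Cis_KO lowest. Its log2 fold change in Cis_Stat6_DKO against Cis_KO was 1.47 ± 0.22 (SE), with the smallest p of the lipid genes (edgeR adjusted p = 0.0672) and an adjusted p of 1e-06 in DESeq2, and was 1.30 without Cis_KO replicate 2. In Cis_Stat6_DKO against WT the log2 fold change of Msr1 was 0.88 ± 0.22 (edgeR adjusted p = 0.42, DESeq2 adjusted p = 0.0303), and in Cis_KO against WT it was -0.59 ± 0.22 (edgeR adjusted p = 0.437), and -0.42 without Cis_KO replicate 2.

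Cd36, a scavenger receptor that also carries long-chain fatty acids across the membrane, had 735 and 806 CPM in Cis_Stat6_DKO, 447 and 277 in Cis_KO and 446 and 605 in WT. Both Cis_Stat6_DKO libraries lay above the other 4, while Cis_KO and WT overlapped. The log2 fold change was 1.09 ± 0.28 in Cis_Stat6_DKO against Cis_KO (edgeR adjusted p = 0.17, DESeq2 adjusted p = 0.00792) and 0.78 without Cis_KO replicate 2 (edgeR adjusted p = 0.111). Olr1, the receptor LOX-1 for oxidised low-density lipoprotein, had 254 and 273 CPM in Cis_Stat6_DKO, 187 and 132 in Cis_KO and 236 and 249 in WT, so that the Cis_KO libraries stood below those of the other genotypes. Lpl, lipoprotein lipase, which frees fatty acids from triglyceride-rich particles, had 1492 and 1377 CPM in Cis_Stat6_DKO, 712 and 769 in Cis_KO and 970.0 and 1584 in WT. Its Cis_KO libraries were the lowest, whereas the WT libraries spanned the range of the Cis_Stat6_DKO ones. The log2 fold change in Cis_KO against WT was -0.79 ± 0.27 for Lpl (edgeR adjusted p = 0.428) and -0.60 ± 0.21 for Olr1 (edgeR adjusted p = 0.431). Lpl was at -0.84 without Cis_KO replicate 2. For Olr1 the value was -0.37 without Cis_KO replicate 2 (edgeR adjusted p = 0.471) and -0.89 without Cis_KO replicate 1 (edgeR adjusted p = 0.00607).

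The fatty acid binding proteins, small cytosolic carriers, did not share 1 order of genotypes. Fabp5 had 1022 and 1564 CPM in Cis_Stat6_DKO, 340.4 and 730.1 in Cis_KO and 565 and 527 in WT. The log2 fold change of the gene was 1.27 ± 0.39 in Cis_Stat6_DKO against Cis_KO (edgeR adjusted p = 0.208) and 1.24 ± 0.39 in Cis_Stat6_DKO against WT (edgeR adjusted p = 0.666), comparisons that share the Cis_Stat6_DKO libraries. The first was 1.91 without Cis_KO replicate 2 (edgeR adjusted p = 0.0132) and 0.83 without Cis_KO replicate 1 (edgeR adjusted p = 0.0433). Fabp4, the carrier best known from adipocytes and macrophages, had 216 and 390.0 CPM in Cis_Stat6_DKO, 91.4 and 143 in Cis_KO and 191 and 198 in WT. This gene's log2 fold change in Cis_Stat6_DKO against Cis_KO was 1.37 ± 0.34 (edgeR adjusted p = 0.159, DESeq2 adjusted p = 0.0045), 1.72 without Cis_KO replicate 2 and 0.89 without Cis_Stat6_DKO replicate 2. Fabp1, the carrier known from liver, went the other way, with 156 and 110.2 CPM in Cis_Stat6_DKO, 228 and 223 in Cis_KO and 134 and 194 in WT. The Cis_KO libraries were the highest, and the log2 fold change of Fabp1 in Cis_Stat6_DKO against Cis_KO was -0.76 ± 0.25 (edgeR adjusted p = 0.223), and -0.79 without Cis_KO replicate 2. On the per-length scale of the authors' FPKM, Fabp1 averaged 286, Fabp5 198 and Fabp4 40.9 over the 6 libraries. Lengths recovered from counts and FPKM were 4.98 kb for Fabp4, 3.96 kb for Fabp5 and 0.614 kb for Fabp1. Their longest coding transcripts have 0.896, 0.987 and 0.553 kb in the same order. The recovered lengths are approximate, since they also exceed the joined exons of each gene (4.489, 3.567 and 0.553 kb). Per kilobase of the longest coding transcript, Fabp5 averaged 802 CPM, Fabp1 315 and Fabp4 229, so Fabp5 and Fabp1 change places with the length used. Fabp5 and Fabp4 are neighbours on chromosome 3 (mm10, chr3:10012548-10016607 and chr3:10204088-10208576), and Fabp1 lies on chromosome 6.

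**Figure D2:**
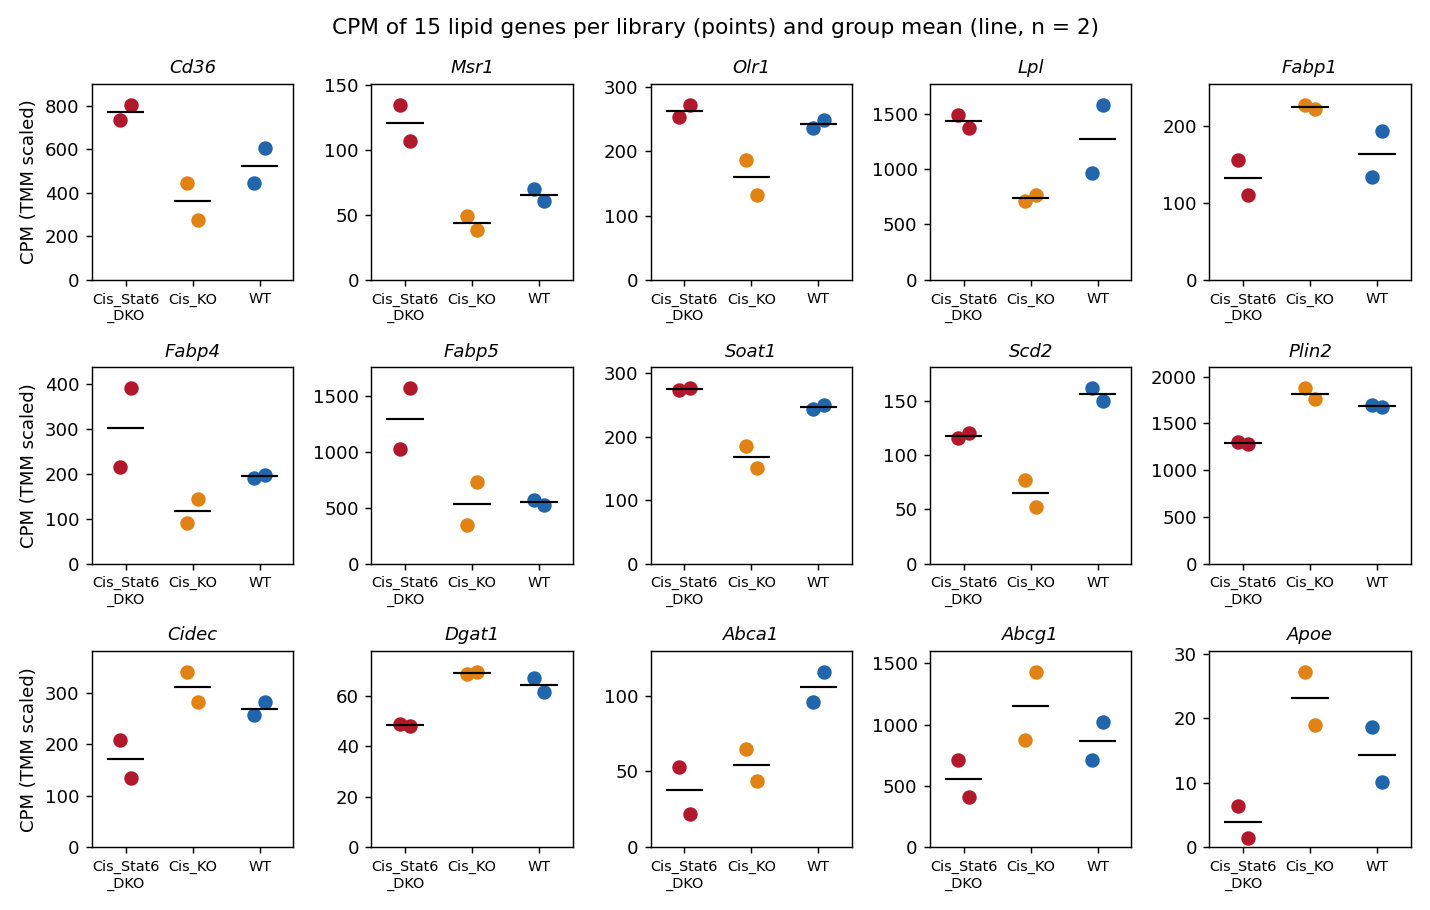
Points are the CPM of a gene in each library and lines the mean of each genotype, with Cis_Stat6_DKO at the left, Cis_KO in the middle and WT at the right of each panel, on linear axes from 0. Msr1, Cd36 and Fabp5 show the 2 Cis_Stat6_DKO points above all others, while Plin2, Dgat1 and Apoe show them below all others.

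Sterol efflux genes had their lowest values in Cis_Stat6_DKO. The 3 tested genes of the step had a median log2 fold change of -1.04 in Cis_Stat6_DKO against Cis_KO, -1.49 in Cis_Stat6_DKO against WT and 0.41 in Cis_KO against WT. Leaving out 1 library moved these medians: the first was -1.49 without Cis_Stat6_DKO replicate 1 and -0.69 without replicate 2, the second -2.26 and -0.99 without the same libraries, and the last 0.02 without Cis_KO replicate 2. Apoe, the apolipoprotein that takes up sterol from macrophages, had 6.39 and 1.44 CPM in Cis_Stat6_DKO, 27.1 and 19.0 in Cis_KO and 18.6 and 10.1 in WT. Its log2 fold change of -2.55 ± 0.69 in Cis_Stat6_DKO against Cis_KO was the widest among the lipid genes and had the largest error (edgeR adjusted p = 0.181, DESeq2 adjusted p = 0.00167). In Cis_Stat6_DKO against WT it was -1.87 ± 0.68 (edgeR adjusted p = 0.825). The 2 Cis_Stat6_DKO libraries differed from each other in Apoe, in proportion, by more than the 2 libraries of Cis_KO or WT did, and the log2 fold change against Cis_KO was -4.01 without Cis_Stat6_DKO replicate 1 and -1.85 without Cis_Stat6_DKO replicate 2. Without Cis_KO replicate 2 it was -2.78. Markers of monocytes and interstitial macrophages, cells that can also express Apoe, summed to between 10.9 and 22.6 CPM in each library. The highest sums were in Cis_KO, but the single markers did not share that order. Ly6c2 was highest in Cis_KO replicate 2, with 7.95 CPM, whereas C1qa was lowest in Cis_KO, with 0.656 and 0.548 CPM. The part of these cells in the Apoe values was not tested.

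Abca1, the transporter that passes cholesterol to lipid-poor apolipoproteins, had 52.9 and 22.2 CPM in Cis_Stat6_DKO, 65.1 and 43.4 in Cis_KO and 95.5 and 115 in WT. Both mutant genotypes lay below WT and overlapped each other. The log2 fold change of Abca1 was -1.49 ± 0.42 in Cis_Stat6_DKO against WT (edgeR adjusted p = 0.566, DESeq2 adjusted p = 0.0225) and -0.96 ± 0.42 in Cis_KO against WT (edgeR adjusted p = 0.452; -0.69 without Cis_KO replicate 2). These contrasts share the WT libraries. The first was -2.26 without Cis_Stat6_DKO replicate 1 and -0.99 without Cis_Stat6_DKO replicate 2. Abcg1, which exports sterol to high-density lipoprotein and had the highest FPKM of the step, had 709 and 411 CPM in Cis_Stat6_DKO, 879 and 1427 in Cis_KO and 714 and 1023 in WT. For this gene the log2 fold change in Cis_Stat6_DKO against Cis_KO was -1.04 ± 0.37 (edgeR adjusted p = 0.232), and -0.66 without Cis_KO replicate 2, which held the highest value. Apoe and Abcg1 were thus lowest in Cis_Stat6_DKO with Cis_KO not below WT, whereas Abca1 was lower than WT in both mutants.

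The storage genes split, with Plin2, Cidec and Dgat1 lowest and Soat1 and Plin3 highest in the double mutant. Plin2, the main droplet coat protein of macrophages, had the highest FPKM of all 40 lipid genes, 413 on average. It had 1305 and 1275 CPM in Cis_Stat6_DKO, 1872 and 1762 in Cis_KO and 1697 and 1675 in WT. The libraries of each genotype lay close together and the Cis_Stat6_DKO ones were the lowest, with a log2 fold change of -0.49 ± 0.18 against Cis_KO (edgeR adjusted p = 0.237, DESeq2 adjusted p = 0.0422; -0.55 without Cis_KO replicate 2) and -0.39 ± 0.18 against WT (edgeR adjusted p = 0.99). Cidec, which promotes growth of droplets by fusion and is known as a PPARG target, had 208 and 135 CPM in Cis_Stat6_DKO, 339 and 282 in Cis_KO and 256 and 281 in WT. This gene's log2 fold change was -0.86 ± 0.25 against Cis_KO (edgeR adjusted p = 0.192) and -0.65 ± 0.25 against WT (edgeR adjusted p = 0.863), and the first of these was -0.99 without Cis_KO replicate 2.

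Soat1, which esterifies cholesterol for storage, ran opposite to Plin2. It had 274 and 276 CPM in Cis_Stat6_DKO, 186 and 151 in Cis_KO and 244 and 250 in WT. The log2 fold change of Soat1 was 0.71 ± 0.18 in Cis_Stat6_DKO against Cis_KO (edgeR adjusted p = 0.161, DESeq2 adjusted p = 0.0137), 0.15 ± 0.18 in Cis_Stat6_DKO against WT and -0.55 ± 0.18 in Cis_KO against WT (edgeR adjusted p = 0.417). Without Cis_KO replicate 2 the difference from Cis_KO was 0.56 and that of Cis_KO from WT -0.41. The Cis_KO libraries were therefore the ones that stood apart, in the same order as for Olr1. The 2 enzymes of the last step of triglyceride synthesis differed from each other. Dgat1 had 48.7 and 48.2 CPM in Cis_Stat6_DKO, 68.7 and 69.4 in Cis_KO and 67.0 and 61.7 in WT, lowest in the double mutant. Dgat2 had 20.3 and 25.2 CPM in Cis_Stat6_DKO, 53.2 and 28.9 in Cis_KO and 21.9 and 16.8 in WT, highest in Cis_KO. Its difference in Cis_KO against WT was a log2 fold change of 1.08 ± 0.33 (edgeR adjusted p = 0.414). That value rested on replicate 1 of Cis_KO, since it was 1.46 without replicate 2 and 0.56 without replicate 1. Plin3, another coat protein, had 144 and 148 CPM in Cis_Stat6_DKO, 113 and 88.4 in Cis_KO and 123 and 130 in WT, and Hilpda, an inhibitor of triglyceride lipase, stayed between 4.40 and 6.33 CPM.

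The windows of 250 bases before the RefSeq gene starts (GRCm38.p6, the sequence of mm10) were searched on both strands, and 31 of the 40 lipid genes had at least 1 window, 43 in all. The motifs were TTCNNNNGAA for STAT6, TTCNNNGAA for STAT5, AGGTCA for a single nuclear receptor site, and the repeats AGGTCANAGGTCA (PPAR with RXR) and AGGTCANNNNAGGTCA (LXR with RXR), which contain the single site. The STAT6 letters occurred for Cidec and Elovl1, in 2 of the 43 lipid windows, and in 5.85% of the 32851 windows of all genes. The STAT5 letters occurred for Cpt2, Hadha and Hadhb, in 3 of the 43 lipid windows, and in 7.02% of all windows. AGGTCA occurred for 12 lipid genes, among them Cd36, Pparg, Plin2, Fabp1 and Olr1, in 13 of the 43 lipid windows, and in 14.0% of all windows. The repeats occurred for 0 lipid genes, and in 0.0335% and 0.0152% of all windows. Msr1 and Fabp4 had the smallest p-values in Cis_Stat6_DKO against Cis_KO and no window in the table. Scd2, which stood between Soat1 and Cd36 in that order, had none either. The windows of Soat1 and Cd36 are printed 5′ to 3′ on the strand of the gene, with that of Cidec, chosen after its values and motif were seen because it is the droplet gene that holds the STAT6 letters. Capitals mark the motif, and positions count back from the gene start. All 3 genes lie on the minus strand. The Cd36 window (chr5:17835897-17836146) has TGACCT, the reverse complement of AGGTCA, at -228 to -223, and the Cidec window (chr6:113434765-113435014), 1 of 2 for this gene, has the STAT6 letters at -247 to -238. The other Cidec window (chr6:113435761-113436010) lies directly before the span listed for the gene, has none of the motifs and is not printed. The Soat1 window (chr1:156474329-156474578) has none of the motifs. The starts behind the printed Cd36 and Cidec windows lie inside the span listed with the counts for these genes. A match is a description of letters and not a bound site.
Cd36: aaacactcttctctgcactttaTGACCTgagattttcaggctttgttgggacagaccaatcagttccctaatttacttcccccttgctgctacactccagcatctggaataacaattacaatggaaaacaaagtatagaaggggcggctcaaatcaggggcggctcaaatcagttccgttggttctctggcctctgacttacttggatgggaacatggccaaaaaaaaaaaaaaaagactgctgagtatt
Soat1: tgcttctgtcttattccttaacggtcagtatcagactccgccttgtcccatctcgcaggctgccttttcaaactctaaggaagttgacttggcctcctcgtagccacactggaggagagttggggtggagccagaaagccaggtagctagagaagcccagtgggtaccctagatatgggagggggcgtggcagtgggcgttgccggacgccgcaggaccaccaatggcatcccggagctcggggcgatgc
Cidec: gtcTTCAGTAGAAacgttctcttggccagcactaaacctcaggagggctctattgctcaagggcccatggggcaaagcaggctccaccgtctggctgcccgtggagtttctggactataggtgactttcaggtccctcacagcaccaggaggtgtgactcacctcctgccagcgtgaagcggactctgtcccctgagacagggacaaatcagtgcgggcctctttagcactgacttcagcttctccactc

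Lipolysis genes had small differences. Pnpla2, the lipase ATGL that opens triglyceride breakdown and the member with the highest FPKM of this step, had 158 and 139 CPM in Cis_Stat6_DKO, 175 and 258 in Cis_KO and 167 and 169 in WT. Its log2 fold change in Cis_Stat6_DKO against Cis_KO was -0.55 ± 0.22 (edgeR adjusted p = 0.268), and -0.25 without Cis_KO replicate 2. Lipe, hormone-sensitive lipase, was weakly expressed, with 11.7 and 7.98 CPM in Cis_Stat6_DKO, 13.05 and 15.6 in Cis_KO and 12.8 and 10.1 in WT. Mgll, which splits the last fatty acid from glycerol, had 203 and 251 CPM in Cis_Stat6_DKO, 254 and 193 in Cis_KO and 175 and 203 in WT. Lipe and Mgll had no unadjusted p under 0.05, and their libraries overlapped between Cis_Stat6_DKO and WT.

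Activation and beta-oxidation genes had small differences between genotypes, with an absolute log2 fold change below 1 for all 8 in all comparisons. The median of the step was -0.24 in Cis_Stat6_DKO against Cis_KO, -0.29 in Cis_Stat6_DKO against WT and 0.04 in Cis_KO against WT. The first was -0.08 without Cis_Stat6_DKO replicate 2 and -0.14 without Cis_KO replicate 1, and the last ranged from -0.09 to 0.07 under the alternatives. Hadha, the alpha subunit of the trifunctional enzyme of long-chain oxidation, had 290.1 and 225 CPM in Cis_Stat6_DKO, 364 and 361 in Cis_KO and 314 and 340.1 in WT. The log2 fold change of the gene in Cis_Stat6_DKO against Cis_KO was -0.49 ± 0.19 (edgeR adjusted p = 0.251), and -0.51 without Cis_KO replicate 2. Hadhb, the beta subunit, whose gene starts beside that of Hadha (mm10, chr5:30118304-30155162 and chr5:30155248-30184593), had 122 and 116 CPM in Cis_Stat6_DKO, 143 and 149 in Cis_KO and 137 and 157 in WT. Both subunits thus had their lowest libraries in Cis_Stat6_DKO, and for Hadhb no comparison had an unadjusted p under 0.05.

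Acadl, the long-chain acyl-CoA dehydrogenase and the oxidation gene with the highest FPKM, was the only gene of this step with a mean above WT in Cis_Stat6_DKO. That rank depends on the length used. Per kilobase of the longest coding transcript, Acadl averaged 46.4 CPM and Hadha 78.6. Acadl had 94.8 and 106 CPM in Cis_Stat6_DKO, 99.4 and 93.2 in Cis_KO and 67.5 and 72.4 in WT. Both mutant genotypes lay above WT, by a log2 fold change of 0.52 ± 0.17 in Cis_Stat6_DKO (edgeR adjusted p = 0.703) and 0.46 ± 0.17 in Cis_KO (edgeR adjusted p = 0.437; 0.51 without Cis_KO replicate 2), contrasts that share the WT libraries. Acsl1, which activates fatty acids with coenzyme A, had 76.8 and 75.0 CPM in Cis_Stat6_DKO, 73.3 and 50.2 in Cis_KO and 93.0 and 91.9 in WT. Between Cis_KO and WT its log2 fold change was -0.58 ± 0.22 (edgeR adjusted p = 0.437), -0.33 without Cis_KO replicate 2 and -0.90 without Cis_KO replicate 1. The carnitine transferases Cpt1a and Cpt2, which take fatty acids into mitochondria, and the dehydrogenases Acadm and Acadvl had an unadjusted p above 0.05 in every comparison.

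**Figure D3:**
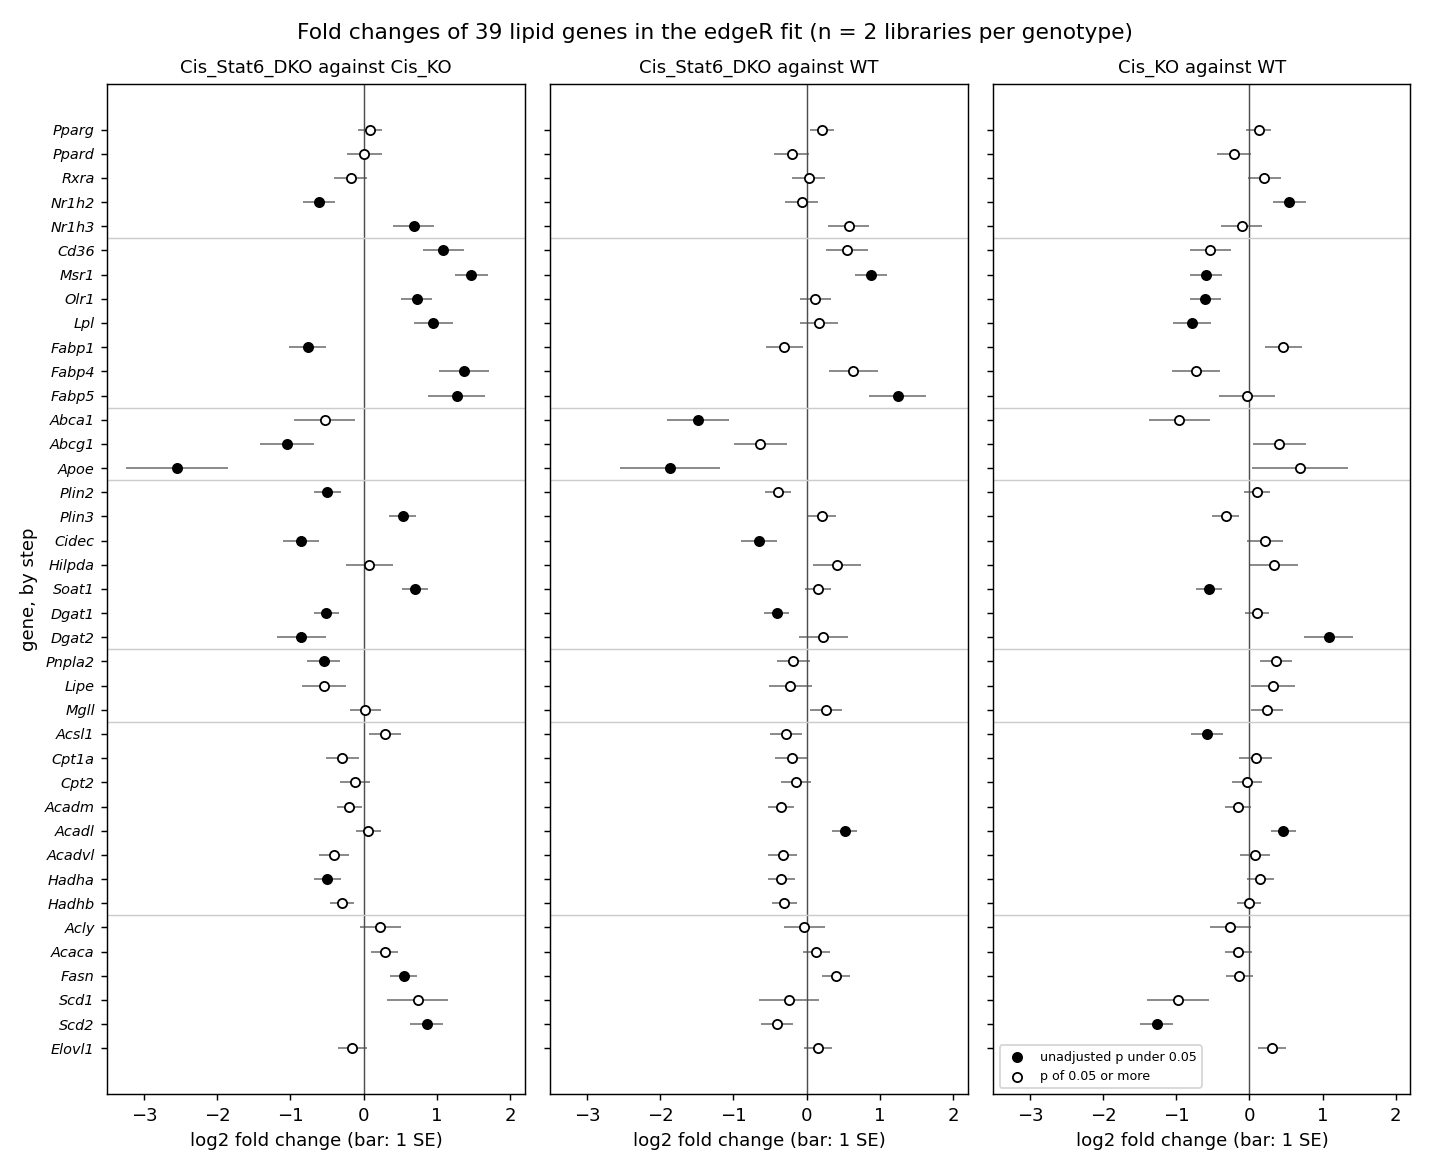
Points are log2 fold changes of the tested lipid genes in the edgeR fit, with bars of 1 SE, for Cis_Stat6_DKO against Cis_KO, Cis_Stat6_DKO against WT and Cis_KO against WT from left to right. Filled points have an unadjusted p under 0.05, and none has an adjusted p under 0.05. In the left panel 6 of the 7 uptake genes lie to the right of 0 and all 3 efflux genes to the left.

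Among the synthesis genes Scd2 stood apart in Cis_KO. Scd2, a stearoyl-CoA desaturase that makes monounsaturated fatty acids, had 116 and 120.5 CPM in Cis_Stat6_DKO, 77.3 and 52.4 in Cis_KO and 162 and 151 in WT. The 3 genotypes did not overlap, with WT highest and Cis_KO lowest. This gene's log2 fold change was -1.27 ± 0.22 in Cis_KO against WT, the smallest p of the lipid genes in that comparison (edgeR adjusted p = 0.128, DESeq2 adjusted p = 0.000101). Dropping replicate 2 of Cis_KO gave -1.01, and dropping replicate 1 instead gave -1.59, so the direction held. Either fit keeps 1 Cis_KO library and cannot measure the spread within that genotype. In Cis_Stat6_DKO against Cis_KO, which shares the Cis_KO libraries, the log2 fold change of Scd2 was 0.86 ± 0.22 (edgeR adjusted p = 0.169), and 0.60 without Cis_KO replicate 2. Scd1, a paralog that lies near it on chromosome 19, was expressed at a lower level, with 10.7 and 17.8 CPM in Cis_Stat6_DKO, 5.64 and 11.4 in Cis_KO and 18.5 and 15.1 in WT. Reads shared between the paralogs could have been split in the counting, which is not described in the sources used here.

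Fasn, fatty acid synthase, had 114 and 116 CPM in Cis_Stat6_DKO, 86.4 and 71.6 in Cis_KO and 94.0 and 80.3 in WT. Its log2 fold change in Cis_Stat6_DKO against Cis_KO was 0.55 ± 0.19 (edgeR adjusted p = 0.228; 0.41 without Cis_KO replicate 2), with both Cis_Stat6_DKO libraries above all others. Acly and Acaca, which supply the acetyl and malonyl groups for Fasn, had an unadjusted p above 0.05 in every comparison. Elovl1, an elongase of very long chains and the synthesis gene with the highest FPKM, had 160 and 190 CPM in Cis_Stat6_DKO, 170 and 218 in Cis_KO and 157 and 156.5 in WT.

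**Figure D4:**
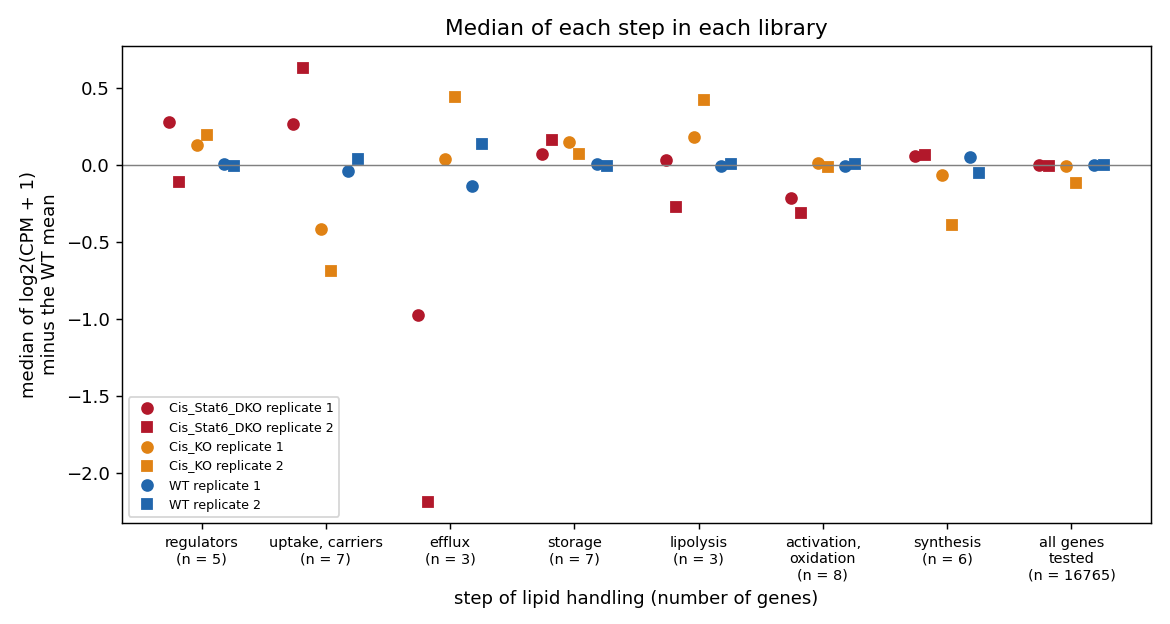
Each point is the median, over the tested genes of a step, of log2(CPM + 1) minus the mean of the WT libraries, in 1 library, with circles for replicate 1 and squares for replicate 2. In the uptake step the Cis_Stat6_DKO libraries stand at 0.27 and 0.63 and the Cis_KO libraries at -0.42 and -0.69, and in the efflux step the Cis_Stat6_DKO libraries stand at -0.98 and -2.19 and the Cis_KO libraries at 0.04 and 0.44.

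A further 124 lipid genes were found in the files, of which 106 were tested. In Cis_Stat6_DKO against Cis_KO, 1 of the 106 passed the adjusted threshold in edgeR, against 0.358% of all genes, and 11 were higher and 24 lower at an unadjusted p under 0.05, against 9.29% and 8.99%. In Cis_Stat6_DKO against WT none passed in edgeR, 6 were higher and 10 lower at an unadjusted p under 0.05, and DESeq2 called 5 of 103, against 0.131%, 3.06%, 2.3% and 2.01% of all genes. In Cis_KO against WT 1 of the 106 passed in edgeR, and 4 were higher and 10 lower at an unadjusted p under 0.05, against 0.274%, 5.51% and 5.59% of all genes. The gene that passed in both comparisons was Hsd17b4, the multifunctional enzyme of peroxisomal beta-oxidation. It had 70.1 and 67.5 CPM in Cis_Stat6_DKO, 237 and 282 in Cis_KO and 65.1 and 68.1 in WT. Hsd17b4 was higher in Cis_KO than in WT by a log2 fold change of 1.96 ± 0.18 (edgeR adjusted p = 0.0215). It fell by 1.92 ± 0.18 in Cis_Stat6_DKO against Cis_KO (edgeR adjusted p = 0.0169), in a contrast that shares the Cis_KO libraries, and was 0.05 ± 0.17 in Cis_Stat6_DKO against WT. Without Cis_KO replicate 2 the difference between Cis_KO and WT was 1.83 (edgeR adjusted p = 0.00186).

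Among the genes of the wider list that the naming rule picked, Lipa and Acsl4 had the order of Msr1, with Cis_KO lowest. Of the uptake genes of the wider list, the lipoprotein receptor gene Scarb1 and the fatty acid transporter gene Slc27a1 went the other way. Their log2 fold changes in Cis_Stat6_DKO against Cis_KO were -0.79 ± 0.24 (edgeR adjusted p = 0.206) and -0.87 ± 0.28 (edgeR adjusted p = 0.22). Angptl4, which encodes a lipase inhibitor rather than an uptake protein, was at -1.19 ± 0.31 (edgeR adjusted p = 0.168). Scarb1, Slc27a1 and Angptl4 were picked after their values were seen. Lipa, the lysosomal acid lipase that frees cholesterol and fatty acids from ingested particles, had 1410 and 1575 CPM in Cis_Stat6_DKO, 717 and 529 in Cis_KO and 1230 and 1136 in WT. For this gene the log2 fold change was 1.26 ± 0.22 in Cis_Stat6_DKO against Cis_KO (edgeR adjusted p = 0.0905; 1.05 without Cis_KO replicate 2, edgeR adjusted p = 0.0205) and -0.93 ± 0.22 in Cis_KO against WT (edgeR adjusted p = 0.28, DESeq2 adjusted p = 0.0046; -0.72 without Cis_KO replicate 2). Acsl4, which activates arachidonic acid, had 58.5 and 87.0 CPM in Cis_Stat6_DKO, 29.9 and 19.2 in Cis_KO and 42.2 and 44.4 in WT. Marco, a scavenger receptor of alveolar macrophages named after its values were seen, had 1589 and 2249 CPM in Cis_Stat6_DKO, 636 and 889 in Cis_KO and 913 and 1260 in WT. Lipa, Acsl4 and Marco all had their lowest library in Cis_KO.

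Fads1 and Fads2, desaturases of polyunsaturated fatty acids, were highest in Cis_Stat6_DKO. Fads2 had 13 and 15.1 CPM there, 5.06 and 4.02 in Cis_KO and 6.64 and 3.78 in WT, and Fads1 had 37.4 and 38.3 in Cis_Stat6_DKO, 24.9 and 21.4 in Cis_KO and 28.0 and 20.1 in WT. Pltp, the phospholipid transfer protein, was lowest in Cis_Stat6_DKO, with 95.3 and 36.6 CPM, against 272 and 362 in Cis_KO and 286 and 275 in WT. This gene's log2 fold change was -2.09 ± 0.43 against WT (edgeR adjusted p = 0.281, DESeq2 adjusted p = 9.78e-05). Acaa1b, a peroxisomal thiolase, had 86.2 and 45.6 CPM in Cis_Stat6_DKO, 241 and 158 in Cis_KO and 235 and 256 in WT, with a log2 fold change of -1.90 ± 0.35 against WT (edgeR adjusted p = 0.197). Apoc1, an apolipoprotein gene beside Apoe on chromosome 7, had 0 counts in both Cis_Stat6_DKO libraries, 71 and 82 in Cis_KO and 28 and 24 in WT. Pnpla6, a phospholipase, had 26.3 and 22.7 CPM in Cis_Stat6_DKO, 46.0 and 43.1 in Cis_KO and 26.7 and 28.4 in WT. Pltp, Acaa1b and Apoc1 thus joined Apoe among the genes lowest in the double mutant, while Pnpla6 and Hsd17b4 were high in Cis_KO and near WT values in Cis_Stat6_DKO.

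**Figure D5:**
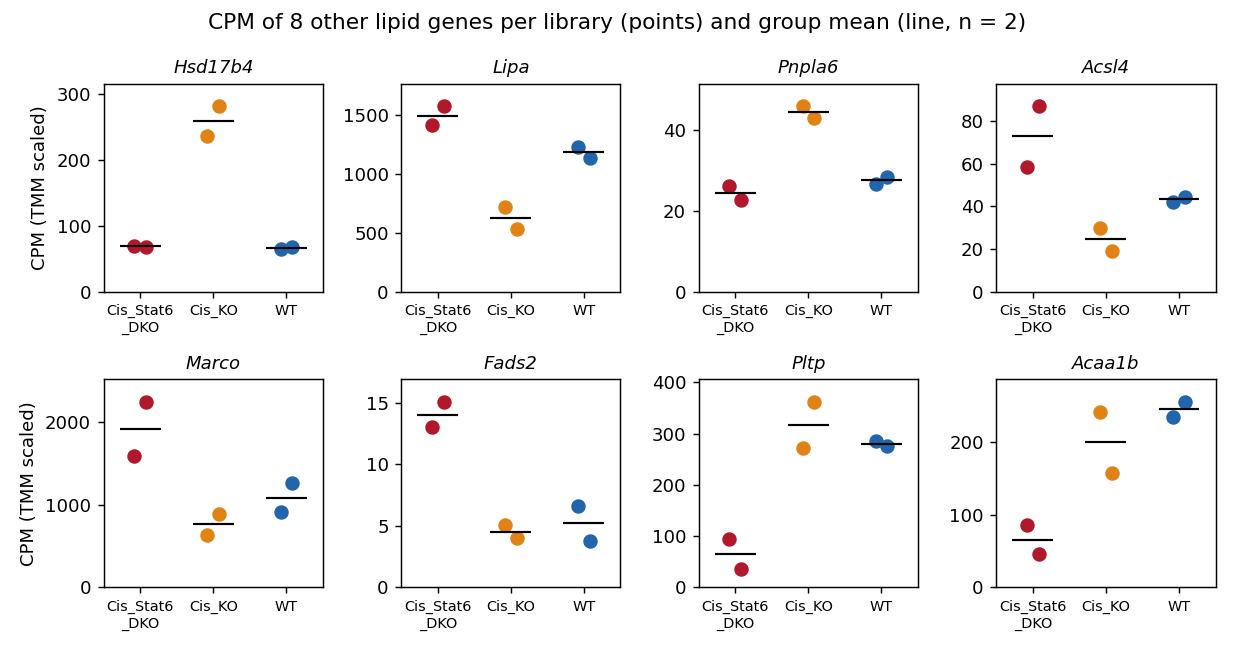
Points are the CPM of further lipid genes in each library and lines the mean of each genotype, with Cis_Stat6_DKO at the left, Cis_KO in the middle and WT at the right of each panel, on linear axes from 0. Hsd17b4 stands at 237 and 282 CPM in the Cis_KO libraries and between 65.1 and 70.1 CPM in the other 4, and Lipa, Acsl4 and Marco are lowest in Cis_KO.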

How the data were processed

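Bulk RNA sequencing counts of 6 libraries, 2 per genotype, were used as the authors deposited them. Per the file headers the counts are reads per gene and were not normalized, and the authors also deposited FPKM values, counts scaled to gene length and library size. Build mm10 is named per the submitters' processing notes; the aligner, the counter and the strand setting were not given in the sources used here. Neighbouring or paralogous genes may therefore share reads.

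The 40 lipid genes were matched by symbol, and each was found once. Members, steps and the wider list were chosen with earlier results of these data known, so no list was tested and no p-value was adjusted over a list. The counts of all genes entered 1 edgeR 4.0.16 quasi-likelihood fit in R 4.3.3, with the genotype as factor, TMM scaling (factors 0.863 to 1.08) and filterByExpr, which kept 16765 of 40564 genes. P-values were two-sided and Benjamini-Hochberg adjusted over all genes tested, with a threshold of 0.05. The standard error is the size of the log2 fold change over the square root of F. The common biological coefficient of variation was 50.3% on 3 residual degrees of freedom, and totals of 50762354 to 65937118 counts make counting error small beside it for most lipid genes. FPKM served only to compare levels between genes. The test was tried on simulated counts with large known changes and a smaller spread than these data have. That trial does not show how well the test finds smaller changes here.

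Alternatives were DESeq2 1.42.0, RLE size factors, no scaling, removal of 46 abundant genes (haemoglobin, mitochondrial and ribosomal RNA-like), no filter, only the groups compared, a replicate block and each library left out. Genes given per library were, in each step, the 3 with the smallest p in any comparison and the 1 with the highest FPKM, members outside all 4 other libraries with an absolute log2 fold change of at least 1 in both comparisons of Cis_Stat6_DKO, and, of the wider list, called genes and the 2 higher and 2 lower with the smallest p per comparison. The other members with per-library values (Olr1, Lpl, Dgat1, Plin3, Hadhb), and Marco, Scarb1, Angptl4, Slc27a1 and Plin1, were added after their values were seen. The promoter windows are from RefSeq, GRCm38.p6. No protein sequence was printed. A gene that the rule names is not reported here.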

Additional observations from a re-analysis of the deposited data

How the results depend on the processing

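The count of lipid genes past an adjusted p under 0.05 depended on the tool, the filter and the libraries. In Cis_Stat6_DKO against Cis_KO it was 0 in edgeR, 12 in DESeq2 and 11 with no filter, and 0 to 18 with 1 library left out. In Cis_Stat6_DKO against WT it was 0 in edgeR, 2 in DESeq2, 4 with no filter, 1 with only the groups compared and 0 to 2 with 1 library left out. In Cis_KO against WT it was 0 in edgeR, 1 in DESeq2, 3 with no filter and 0 to 10 with 1 library left out. Leaving out Cis_KO replicate 1 gave the highest counts in both comparisons with Cis_KO, and over all genes it gave 5999 calls in Cis_Stat6_DKO against Cis_KO, against 60 with all libraries, and 5349 in Cis_KO against WT, against 46. With no filter the calls over all genes were 1840 in Cis_Stat6_DKO against Cis_KO, 385 in Cis_Stat6_DKO against WT and 1021 in Cis_KO against WT, against 60, 22 and 46 with the filter. The cause was not tested.

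The median log2 fold change of the lipid genes ranged from -0.133 to 0.018 with 1 library left out in Cis_Stat6_DKO against Cis_KO and from -0.173 to 0.028 in Cis_Stat6_DKO against WT. In Cis_KO against WT, where it was -0.008, it was 0.008 with RLE size factors, -0.118 with no scaling factor, -0.021 with no filter, 0.0 in DESeq2 and -0.015 to 0.032 with 1 library left out. All 37 gene differences with an unadjusted p under 0.05 kept their direction in all 13 alternatives. They were picked for a small p in these libraries, which the alternatives reuse, so the kept direction is not independent support. Of 273 medians of single steps under the alternatives, 37 moved by more than the spread between libraries, 29 of them with 1 library left out.

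Same-numbered libraries did not deviate together (r of -0.065 to 0.013, under 0.1 in each pair), so the replicate numbers were not taken as a pairing. The fit with the replicate block called 0 lipid genes in each comparison, and 28 genes in Cis_Stat6_DKO against Cis_KO, 12 in Cis_Stat6_DKO against WT and 24 in Cis_KO against WT over all genes, against 60, 22 and 46 without it. Depth limited only the weakly expressed genes, with Apoe at 70 counts or more in each library and Apoc2 untested.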
